A study of Mus musculus with 6 samples.

Results

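The 50 genes described here code for mouse translation initiation factors, eIF1 to eIF6, and for the small proteins that bind the cap-binding factor eIF4E. They were chosen as the protein-coding genes of the deposited table whose symbols begin with Eif1 to Eif6, without the eIF2 kinases (Eif2ak), and they were 50 of 21436 listed genes, of which 16207 were protein-coding. The level of each gene was given in FPKM, that is, fragments counted on a gene divided by its length and by the size of the library. The cells were 3T3-L1, a mouse embryo fibroblast line that can be turned into adipocytes, with wild-type genotype, all kept for 72 h in adipogenic medium with 2 µM rosiglitazone, 1 µM dexamethasone, 0.5 mM IBMX, 10 mg/L insulin and 10% serum. In the co-culture group (n = 3 libraries) human umbilical cord mesenchymal stem cells sat above them in a Transwell insert with 0.4 µm pores; in the alone group (n = 3 libraries) the upper chamber held no such cells. The comparison asks how the separated human cells changed gene expression in 3T3-L1 cells during adipogenic induction. The labels do not say whether libraries of one group came from separate cultures, so the p-values measure the spread between these libraries, which may be technical.

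Initiation brings a ribosome to the start codon of a messenger RNA. eIF4F, made of the cap-binding protein eIF4E, the scaffold eIF4G and the helicase eIF4A, is recruited to the cap, and the small ribosomal subunit arrives with eIF1, eIF1A, eIF3, eIF5 and the eIF2 complex that carries the initiator tRNA. eIF2B recharges eIF2 with GTP, eIF5B joins the large subunit, and the 4E-binding proteins compete with eIF4G for eIF4E. Insulin, which is part of the adipogenic medium, is known to act on this system in adipocytes through phosphorylation of 4E-BP1, which RNA levels do not show.

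The library totals recovered from the values were 29603755 to 37612585 reads in co-culture and 36119750 to 38357563 reads alone. The 50 genes held 1.34% to 1.35% of all reads in the co-culture libraries and 1.33% to 1.37% in the alone libraries. Reads of 13 mitochondrial genes took 4.82%, 4.97% and 4.996% in co-culture, against 4.62%, 4.48% and 4.40% alone. A set of 7 fibroblast and preadipocyte markers summed to 2888 to 2922 FPKM in co-culture and 2602 to 2705 FPKM alone, with 4 of the 7 called higher and 1 called lower. A set of 6 adipocyte markers summed to 0.758 to 0.973 FPKM in co-culture and 0.957 to 1.11 FPKM alone, so the defining adipocyte genes were near 0 in both groups. Red cell and neutrophil markers (9 genes) summed to 3.82 to 21.2 FPKM in co-culture and 19.8 to 36.3 FPKM alone. Of these, 4 were tested and 2, Hba-a1 and Hbb-bs, were called lower, the Hba-a1 call holding in 7 of 17 alternatives. The source of such reads in a fibroblast line was not tested. Macrophage markers (4 genes) summed to 3.59 to 3.96 FPKM in co-culture and 3.20 to 4.13 FPKM alone. Nearly all of this was Cd68, which averaged 3.71 FPKM in co-culture and 3.75 FPKM alone. Adgre1, Csf1r and Ptprc had 1, 12 and 3 reads over the co-culture libraries, and 1, 16 and 7 reads over the alone libraries. The part of these markers and of the mitochondrial share in the results was not tested, and in bulk RNA fewer cells of a type and less RNA per cell cannot be told apart. Alone replicate 1 stood apart from the other alone libraries. It was the highest alone library for 27 of the 47 tested initiation factor genes (57.4%), and for 37.9% of all tested genes.

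Of the 50 genes, 47 had a mean of at least 1 FPKM and were tested, and Eif4e3, Eif4g3 and Eif2s3y were below that level. Genes were called at an adjusted p below 0.05, from limma with Benjamini-Hochberg adjustment over all 10055 genes tested, and log2 changes are co-culture minus alone on the log2(FPKM + 1) scale. In co-culture 14 of the 47 (29.8%) were lower and 4 (8.51%) were higher, while 29 did not pass. Over all tested genes 17.9% were called lower and 13.9% higher, 31.8% in either direction, against 38.3% of the initiation factor genes. The share called lower was thus above that of all genes and the share called higher below it; these differences were not tested. With quantile scaling 11 initiation factor genes were higher and 12 lower, against 16.5% and 15.9% of all genes. Without alone replicate 1 the count was 9 higher and 13 lower, against 14.2% and 17.4% of all genes. It was 2 higher without co-culture replicate 1 (9.66% of all genes), co-culture replicate 3 (9.15%), alone replicate 2 (10.0%) or alone replicate 3 (10.5%). Without co-culture replicate 3 it was 9 lower (14.0% of all genes).

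The changes were small. The log2 changes ran between -0.46 and 0.24 with a median of -0.014, and the median over all tested genes was -0.0037. The groups did not overlap for 17 genes that were lower in every co-culture library (36.2%) and 7 that were higher in every one (14.9%), against 24.8% and 21.3% of all tested genes. The 10 calls that held under every one of the 18 alternatives were those of Eif4ebp1, Eif1ad, Eif6, Eif5a, Eif4a1, Eif1, Eif3c and Eif2s1, which were lower, and of Eif4b and Eif2a, which were higher.

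**Figure D1:**
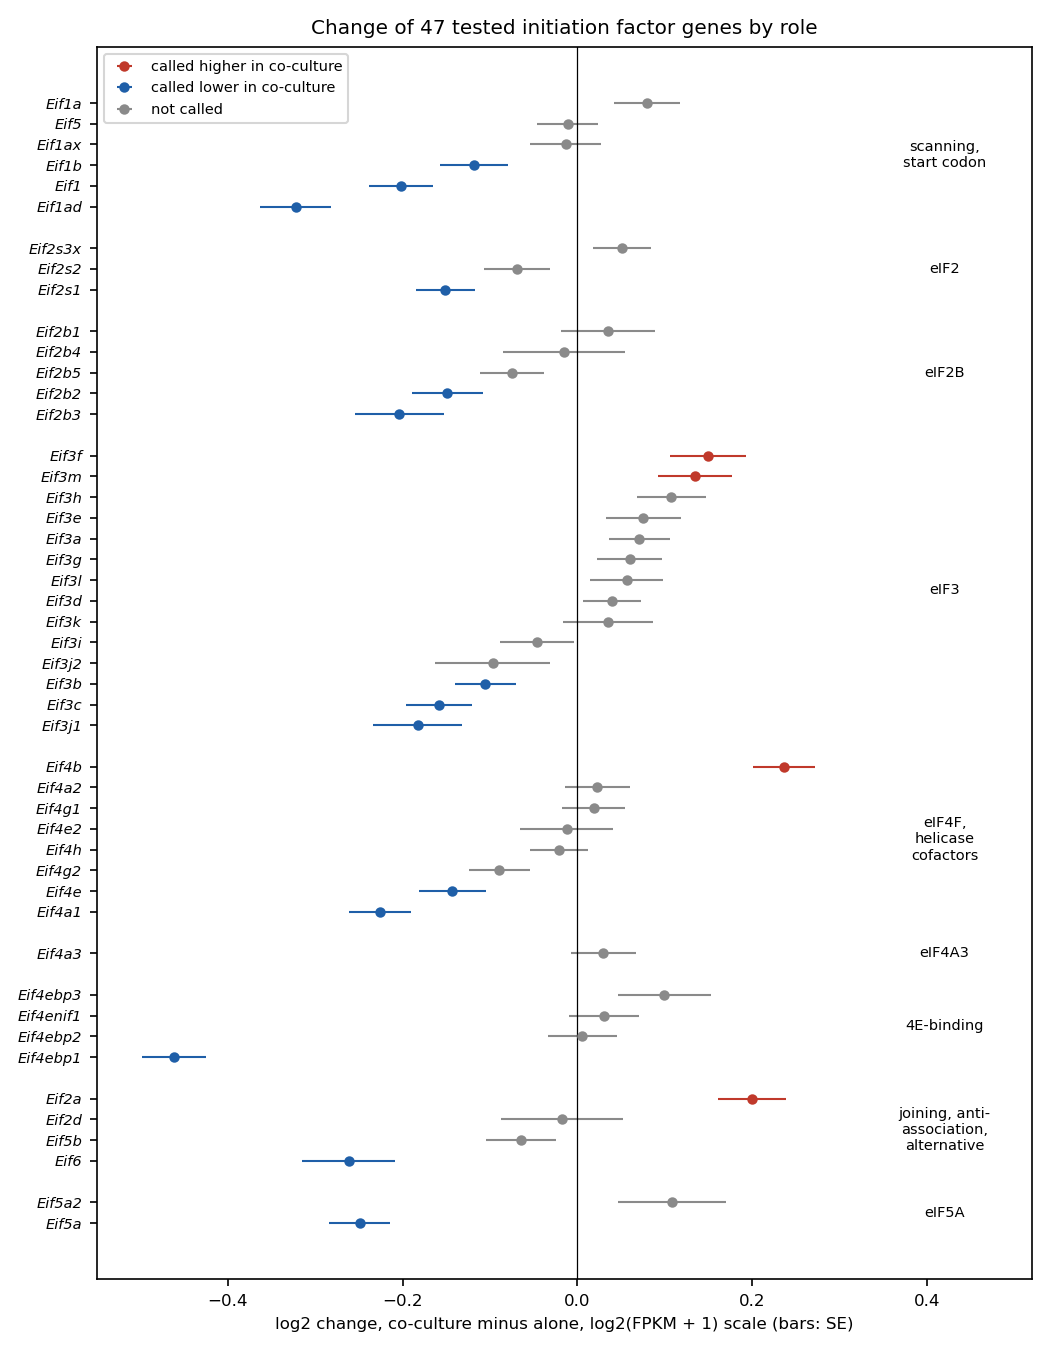
Log2 change (co-culture minus alone, log2(FPKM + 1) scale; points, bars are SE, n = 3 libraries per group) of the 47 tested initiation factor genes, grouped by role. Eif4ebp1 lies furthest to the left at -0.46 and Eif4b furthest to the right at 0.24, and within eIF3 and eIF4F called genes lie on both sides of 0.

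The largest change among the initiation factor genes was in Eif4ebp1 (chromosome 8, 27260327 to 27275656, GRCm38), which codes for 4E-BP1, the inhibitor that keeps eIF4E from eIF4G until insulin signalling through mTORC1 phosphorylates it. It had 124, 130.3 and 124 FPKM in the co-culture libraries, against 178, 176 and 169 FPKM in the alone libraries. Every co-culture library was below every alone library. It was 1.38-fold lower in co-culture, at 126 ± 3.69 FPKM against 174 ± 4.79 FPKM alone (SD, n = 3 each), with a log2 change of -0.46 (SE 0.037, adjusted p = 1.15e-05, limma). Its relatives did not pass the test. Eif4ebp2, which codes for 4E-BP2, had 21.5, 21.0 and 22.4 FPKM in co-culture and 21.2, 22.0 and 21.5 FPKM alone, and its groups overlapped (adjusted p = 0.929). Eif4ebp3 had 5.55, 5.94 and 6.21 FPKM in co-culture and 5.38, 5.58 and 5.35 FPKM alone (adjusted p = 0.181), and its exons share 501 bases with another gene on the same strand, so its level is uncertain. Eif4enif1, which codes for 4E-T, a shuttling protein that binds eIF4E, averaged 14.7 FPKM in co-culture and 14.4 FPKM alone (adjusted p = 0.591). Among the 4 genes of 4E-binding proteins, 4E-BP1 was thus the one that fell, and it was also the most abundant per kilobase.

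The cap-binding factor itself also fell. Eif4e had 12.8, 12.8 and 12.7 FPKM in co-culture, against 14.3, 14.1 and 14.2 FPKM alone, and the groups did not overlap. It was 1.11-fold lower (log2 change -0.14, SE 0.038, adjusted p = 0.0169, limma), and the call was lost without co-culture replicate 1 (0.0526) or co-culture replicate 3 (0.0538). Exons of Eif4e share 61 bases with a small RNA gene on the same strand, so its level is uncertain. Eif4e2, which codes for the cap-binding homologue 4EHP, had 7.75, 8.30 and 8.35 FPKM in co-culture and 8.73, 8.10 and 7.82 FPKM alone (adjusted p = 0.876). Eif4e3 was below the test filter, with 0.453, 0.566 and 0.672 FPKM in co-culture and 0.639, 0.772 and 0.768 FPKM alone, from 410 and 559 reads in all. Its exons share 373 bases with another gene on the same strand, so its level is uncertain. The Eif4ebp1 to Eif4e ratio of FPKM was 9.76, 10.2 and 9.70 in co-culture, against 12.4, 12.5 and 11.9 alone. Both genes were lower in co-culture, and 4E-BP1 RNA was lower also relative to eIF4E RNA in every library. The exact two-sided permutation test gave p = 0.1, the smallest that 3 libraries against 3 allow, and 0.133 after Benjamini-Hochberg adjustment over the 4 ratios and sums tested in this way.

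Of the helicase eIF4A and the factors that assist it, Eif4a1 fell, Eif4b rose, and Eif4a2 and Eif4h did not pass. Eif4a1 (chromosome 11, 69666936 to 69672423), the main eIF4A of dividing cells, had 328, 332 and 334 FPKM in co-culture, against 399, 378 and 387 FPKM alone. It was 1.17-fold lower in co-culture with no overlap between groups (log2 change -0.23, SE 0.035, adjusted p = 0.000973, limma). Eif4b (chromosome 15, 102073773 to 102097173), whose product stimulates that helicase, had 486, 483 and 488 FPKM in co-culture, against 419, 418 and 399 FPKM alone. It was the most strongly raised initiation factor gene, 1.18-fold higher in co-culture with every co-culture library above every alone library (log2 change 0.24, SE 0.036, adjusted p = 0.000767, limma). Eif4h, whose product also assists eIF4A, averaged 97.5 FPKM in co-culture and 98.9 FPKM alone (adjusted p = 0.663).

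The second cytoplasmic helicase, Eif4a2, did not follow Eif4a1. It had 175, 173 and 177 FPKM in co-culture and 180.3, 167 and 171 FPKM alone (log2 change 0.02, adjusted p = 0.673), with 194 exon bases shared with Rfc4 on the opposite strand. Exons of Eif4a2 also share up to 178 bases with single small RNA genes on the same strand. Those of Eif4a1 share 144 and 143 bases with 2 such genes, so the levels of both are uncertain. The Eif4a2 to Eif4a1 ratio was 0.535, 0.522 and 0.530 in co-culture, against 0.452, 0.441 and 0.442 alone, so the ratio was higher in every co-culture library (exact two-sided permutation p = 0.1, adjusted p = 0.133). The coding sequences of these 2 genes were 78.2% identical with a longest identical run of 20 bases. Eif4a3, the member of the family that belongs to the exon junction complex, had 59.7, 56.3 and 57.8 FPKM in co-culture and 54.9, 57.8 and 57.5 FPKM alone (adjusted p = 0.581).

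The scaffolds Eif4g1 and Eif4g2 did not pass. Eif4g1, the main eIF4G, had 97.2, 95.7 and 96.1 FPKM in co-culture and 91.2, 97.1 and 97.1 FPKM alone (adjusted p = 0.722). Eif4g2, which codes for DAP5, a homologue without the eIF4E-binding region, had 196, 199 and 193 FPKM in co-culture and 202, 212 and 211 FPKM alone. The groups of Eif4g2 did not overlap, but its log2 change of -0.09 missed the threshold (adjusted p = 0.0746) and passed it without alone replicate 1 (0.0161) or with array weights, with values up to 0.221 over the 18 alternatives. The Eif4g2 to Eif4g1 ratio was 2.01, 2.07 and 2.01 in co-culture, against 2.21, 2.19 and 2.17 alone (exact two-sided permutation p = 0.1, adjusted p = 0.133). Exons of Eif4g2 share 150 bases with a small RNA gene on the same strand. Eif4g3 was below the test filter at 0.764, 0.585 and 0.721 FPKM in co-culture and 0.715, 0.733 and 0.646 FPKM alone. In total 2 of the 8 tested genes of eIF4F and its cofactors fell (25.0%), Eif4a1 and Eif4e, and 1 rose (12.5%), Eif4b. Of all tested genes 17.9% were lower and 13.9% higher, and these differences in share were not tested.

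The promoters of these genes were read for the E-box CACGTG, the letters bound by MYC and related factors, since several initiation factor genes are textbook MYC targets. Of the 50 genes, 39 had a promoter in the RefSeq table (GRCm38.p6, 250 bases before to 50 after the start). Those without an entry were Eif6, Eif3j2, Eif3h, Eif4g2, Eif3i, Eif3e, Eif1a, Eif4e3, Eif4ebp3, Eif2b3 and Eif4ebp1. The E-box, which is its own reverse complement and was searched on both strands, was in 10 of the 39 (25.6%), against 8.09% of all 27025 genes in the table. Those 27025 genes were not limited to the 10055 tested here, the difference in share was not tested, and MYC binding was not measured. The E-box was in 4 of 11 promoters of genes called lower, 1 of 4 of genes called higher and 5 of 22 of genes not called, so it was found on both sides of the comparison. The stretches around 1 E-box (capitals) of each of the 5 called genes are shown 5′ to 3′ on the strand of the gene, because they include the cap-binding factor Eif4e and the helicase Eif4a1. They lie at chr3:138527177-138527236 on the plus strand (Eif4e), chr11:69672580-69672639 on the minus strand (Eif4a1), chr11:69921428-69921487 on the minus strand (Eif5a), chr9:120492546-120492605 on the plus strand (Eif1b) and chr7:108934320-108934379 on the plus strand (Eif3f).
Eif4e: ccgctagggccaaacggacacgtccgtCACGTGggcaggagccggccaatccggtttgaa
Eif4a1: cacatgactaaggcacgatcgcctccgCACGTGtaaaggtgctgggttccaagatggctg
Eif5a: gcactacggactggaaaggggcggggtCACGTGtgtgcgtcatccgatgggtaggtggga
Eif1b: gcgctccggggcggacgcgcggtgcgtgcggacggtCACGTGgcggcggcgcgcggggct
Eif3f: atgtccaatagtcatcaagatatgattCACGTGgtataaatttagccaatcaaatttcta

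The E-boxes shown start 64 (Eif4e), 189 (Eif4a1), 74 (Eif5a), 24 (Eif1b) and 68 (Eif3f) bases before an annotated start. Eif4e has another E-box 228 bases and Eif5a another 178 bases before an annotated start, and these are not printed. The other genes with an E-box were Eif3a, Eif3k, Eif4g1, Eif4h and Eif5a2, all not called. The C/EBP-ATF response element TGATGNAA, searched on both strands, was in 1 of the 39 promoters, that of Eif2s3x, against 4.51% of all genes. The cyclic AMP response element TGACGTCA, of interest because IBMX raises cyclic AMP, was in 0 of the 39 against 2.03% of all genes.

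**Figure D2:**
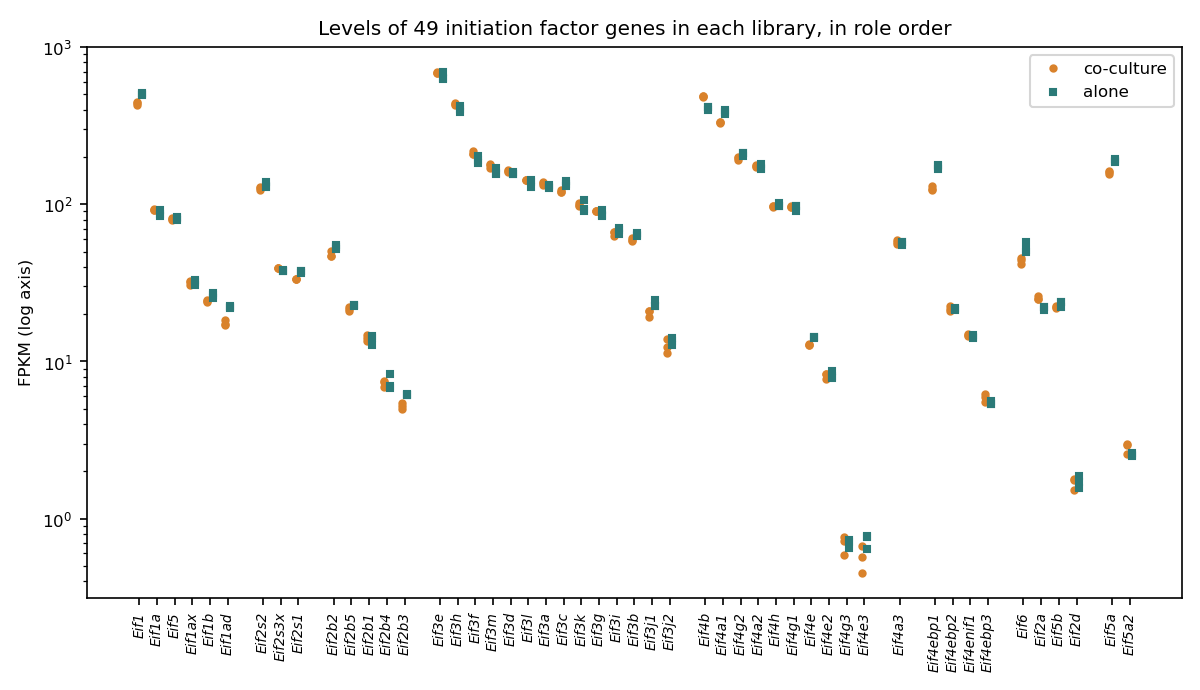
FPKM of the initiation factor genes other than Eif2s3y in each library (log axis; circles, 3 co-culture libraries; squares, 3 alone libraries), ordered by role and by level within a role. Eif3e is highest at 631 to 695 FPKM, and Eif4e3 and Eif4g3 are lowest at 0.453 to 0.772 FPKM.

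In the group of scanning and start codon choice 3 of 6 genes fell, against 17.9% of all tested genes, and the others did not pass. This difference in share was not tested. Eif1 (chromosome 11, 100319949 to 100322099) codes for the factor that keeps the scanning ribosome from settling on poor start codons. It had 441, 447 and 426 FPKM in co-culture, against 507, 495 and 511 FPKM alone. Every co-culture library was lower, by 1.15-fold on average (log2 change -0.20, SE 0.036, adjusted p = 0.00211, limma). Its close homologue Eif1b had 24.2, 24.8 and 23.9 FPKM in co-culture, against 27.3, 26.6 and 25.4 FPKM alone (log2 change -0.12, adjusted p = 0.0413), a call lost in 12 of 18 alternatives, among them without any one library other than alone replicate 3 (0.0565 to 0.129), and its exons share 143 bases with an antisense gene. Eif1ad (chromosome 19, 5366813 to 5371518), named for a domain shared with eIF1A, was grouped here by its symbol, and a role in scanning was not tested. It had 17.3, 18.3 and 17.1 FPKM in co-culture, against 21.7, 22.5 and 22.3 FPKM alone. It was 1.26-fold lower without overlap (log2 change -0.32, SE 0.040, adjusted p = 0.000252, limma). Its exons share 428 bases with Banf1 on the opposite strand, and the sources used here do not say whether strand was counted, which leaves its level uncertain.

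The eIF1A genes and eIF5 differed from those. Eif1a averaged 92.3 FPKM in co-culture and 87.4 FPKM alone (adjusted p = 0.137), and it passed without alone replicate 1 (0.0200), with quantile scaling and with array weights, as higher in co-culture. Eif1ax, the X-linked copy of eIF1A, averaged 31.7 FPKM in co-culture and 32.0 FPKM alone (adjusted p = 0.827). Eif5, whose product triggers GTP hydrolysis by eIF2 at the start codon, averaged 80.8 FPKM in co-culture and 81.4 FPKM alone (adjusted p = 0.83). Exons of Eif5 share 127 bases with a small RNA gene on the same strand, so its level is uncertain.

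Of the eIF2 complex, which delivers the initiator tRNA, the alpha subunit fell. Eif2s1, which codes for this regulated subunit, the target of the stress kinases, had 33.6, 33.3 and 33.6 FPKM in co-culture, against 37.6, 36.8 and 37.6 FPKM alone. The libraries of each group lay close together and the groups did not overlap (1.11-fold lower, log2 change -0.15, SE 0.033, adjusted p = 0.00641, limma). Eif2s2, the beta subunit and the most abundant per kilobase, had 128, 127 and 123 FPKM in co-culture and 138, 128 and 130.5 FPKM alone (adjusted p = 0.188). Eif2s3x, the X-linked gamma subunit, had 39.2, 39.3 and 39.4 FPKM in co-culture and 37.5, 38.4 and 37.8 FPKM alone (log2 change 0.05, adjusted p = 0.264). Its groups did not overlap, yet the difference did not pass. Eif2s3y, the Y-linked gamma subunit, had 1 read in alone replicate 2 and 0 in the other libraries, which allows a level of up to 0.0111 FPKM in the shallowest library.

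eIF2B, the exchange factor that recharges eIF2 and is blocked by phosphorylated eIF2 alpha, had 2 of its 5 subunits lower. Of all tested genes 17.9% were lower, and the difference in share was not tested. Leaving out 1 library at a time gave 0 to 2 lower subunits. Eif2b2, the beta subunit and the most abundant per kilobase, had 47.2, 50.5 and 46.8 FPKM in co-culture, against 53.4, 54.9 and 52.1 FPKM alone (1.11-fold lower, log2 change -0.15, adjusted p = 0.0177). That call was lost without co-culture replicate 1 (0.0678), co-culture replicate 3 (0.0746) or alone replicate 2 (0.0667). Eif2b3, the gamma subunit, had 5.45, 5.24 and 4.96 FPKM in co-culture, against 6.11, 6.20 and 6.15 FPKM alone (1.18-fold lower, log2 change -0.20, SE 0.050, adjusted p = 0.0116), and its call was lost without co-culture replicate 3 (0.0504). Both subunits were lower in every co-culture library. Eif2b5, the catalytic epsilon subunit, averaged 21.5 FPKM in co-culture and 22.7 FPKM alone (adjusted p = 0.143). Eif2b1 averaged 14.1 FPKM in co-culture and 13.8 FPKM alone (adjusted p = 0.657), and Eif2b4 averaged 7.26 FPKM in co-culture and 7.37 FPKM alone (adjusted p = 0.884), with 204 exon bases shared with Snx17 on the opposite strand.

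eIF3, the large scaffold on the small ribosomal subunit, was split. Of its 14 genes 9 had a positive and 5 a negative log2 change, 2 were called higher (14.3%) and 3 were called lower (21.4%). These shares were near the 13.9% higher and 17.9% lower of all tested genes, and the differences were not tested. Eif3e, the most abundant per kilobase of all 50 genes, had 687, 689 and 694 FPKM in co-culture and 695, 641 and 631 FPKM alone. The highest alone library was above all co-culture libraries and the others were below them (log2 change 0.08, adjusted p = 0.21). Eif3f, a subunit with an MPN domain, had 219.9, 208 and 209 FPKM in co-culture, against 201, 191 and 182 FPKM alone (1.11-fold higher, log2 change 0.15, SE 0.043, adjusted p = 0.0241, limma). Eif3m, a subunit with a PCI domain, had 181, 171 and 179 FPKM in co-culture, against 170.5, 156 and 158 FPKM alone (1.098-fold higher, log2 change 0.13, SE 0.042, adjusted p = 0.0329, limma). For both genes every co-culture library was above every alone library. Both calls were lost without co-culture replicate 1, co-culture replicate 3, alone replicate 2 or alone replicate 3, with adjusted p from 0.0552 to 0.0996 for Eif3f and from 0.0948 to 0.121 for Eif3m. Exons of Eif3m share 82 bases with Ccdc73 on the opposite strand.

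The 3 eIF3 subunits that fell were of different modules. Eif3c, a core subunit that contacts eIF1 and eIF5, had 119, 124 and 120.5 FPKM in co-culture, against 141, 135 and 130.3 FPKM alone (1.12-fold lower, log2 change -0.16, SE 0.038, adjusted p = 0.00952, limma). Eif3b, the scaffold of the module with Eif3g and Eif3i, had 61.02, 59.7 and 58.3 FPKM in co-culture, against 64.1, 63.0 and 65.8 FPKM alone (log2 change -0.11, adjusted p = 0.0413), a call lost in 12 of 18 alternatives, among them without any one library other than alone replicate 1 (0.0572 to 0.1502). Eif3j1, which codes for the loosely bound subunit j, had 21.1, 19.1 and 20.8 FPKM in co-culture, against 24.7, 22.6 and 22.4 FPKM alone (log2 change -0.18, adjusted p = 0.0205). In all 3 the groups did not overlap. The Eif3j1 call was lost without co-culture replicate 2 (0.0739) or alone replicate 1 (0.0559). Its coding sequence holds an identical run of 781 bases with Eif3j2, and its exons share 1107 bases with Spg11 on the opposite strand, so its level is uncertain. Eif3j2 had 11.3, 13.8 and 12.4 FPKM in co-culture and 14.0, 12.7 and 13.5 FPKM alone (adjusted p = 0.286). The shared run of 781 bases leaves the level of Eif3j2 uncertain too.

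The other eIF3 genes did not pass, and for some of them this depended on a library or on the scaling. Eif3h, an MPN subunit, had 430.2, 436 and 439 FPKM in co-culture and 423, 401 and 388 FPKM alone (1.08-fold higher, adjusted p = 0.0605). Without alone replicate 1 the adjusted p was 0.00595 for Eif3h, 0.00834 for Eif3e, 0.036 for Eif3g and 0.0443 for Eif3k, each higher in co-culture. Eif3h also passed with median-ratio, TPM and quantile scaling, with array weights and with limma-voom on recovered reads, with adjusted p between 0.00562 and 0.184 over its 18 alternatives. Eif3e and Eif3g also passed with quantile scaling, as did Eif3a, Eif3d and Eif3l, with adjusted p up to 0.470 for Eif3e and up to 0.536 for Eif3g over the alternatives. Alone replicate 1 held the highest alone value for 11 of the 14 eIF3 genes, and for 37.9% of all tested genes. Without that library 6 of the 14 were called higher, against 14.2% of all tested genes. With quantile scaling 8 were called higher, against 16.5% of all tested genes. These differences in share were not tested. Eif3a, the largest core subunit, averaged 136 FPKM in co-culture and 129.8 FPKM alone (adjusted p = 0.15). Eif3d, the subunit that can itself bind caps, averaged 162 FPKM in co-culture and 158 FPKM alone (adjusted p = 0.399), and its exons share 2151 bases with an antisense gene. Eif3l averaged 143 FPKM in co-culture and 137 FPKM alone (adjusted p = 0.329). Eif3i averaged 65.7 FPKM in co-culture and 67.9 FPKM alone (adjusted p = 0.436).

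**Figure D3:**
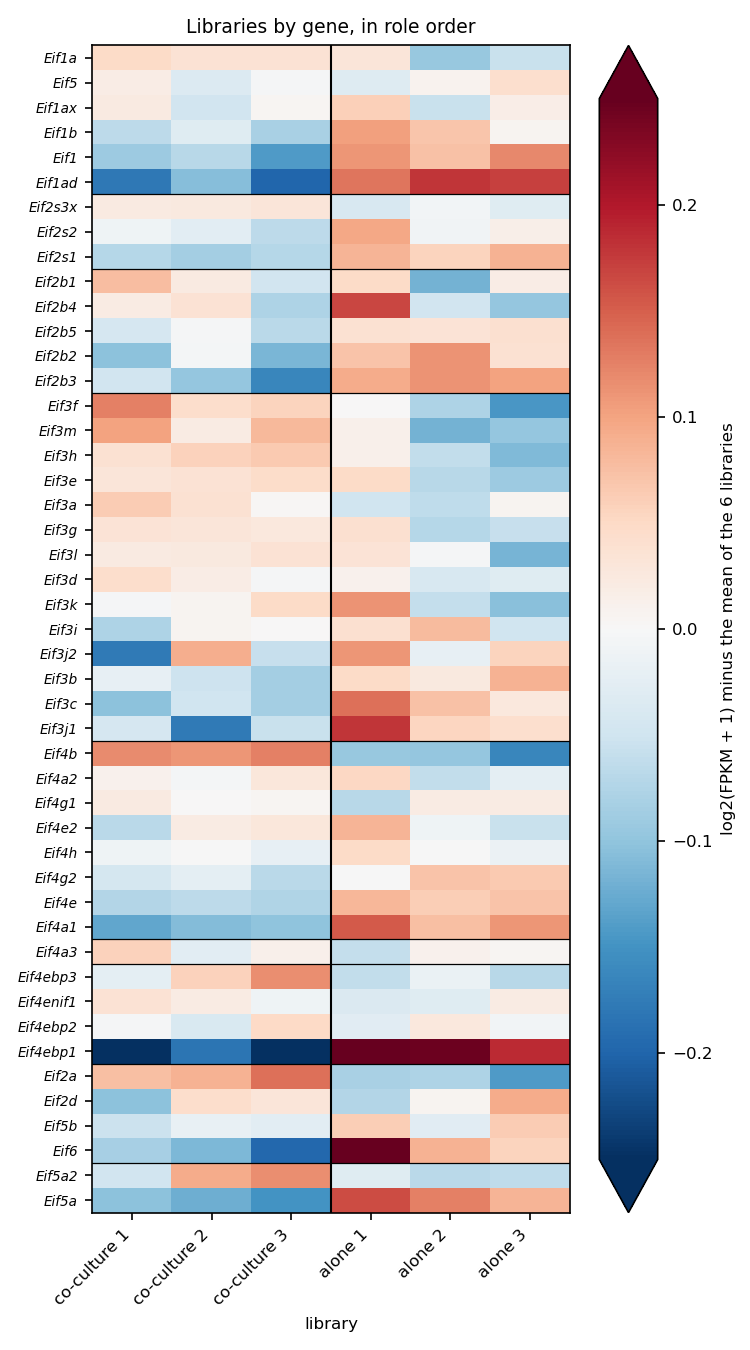
Level of each of the 47 tested genes in each library as log2(FPKM + 1) minus the gene's mean over the 6 libraries (colour scale ends at 0.25 in both directions; columns, 3 co-culture then 3 alone libraries; rows, genes by role). Rows such as Eif4ebp1 and Eif4b split cleanly between the groups. Alone replicate 1 holds the highest alone value in 11 of the 14 rows of eIF3, and in 37.9% of all tested genes.

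Of the factors that act around subunit joining or by other routes, 1 of 4 fell and 1 rose (25.0% each). Of all tested genes 17.9% were lower and 13.9% higher, and these differences in share were not tested. Eif6 (chromosome 2, 155819837 to 155826925) codes for the factor that holds the large subunit apart from the small one. It had 45.3, 44.4 and 41.8 FPKM in co-culture, against 57.4, 51.1 and 49.98 FPKM alone. Every co-culture library was lower, by 1.20-fold on average (log2 change -0.26, SE 0.053, adjusted p = 0.00407, limma), and the gene's exons share 138 bases with an antisense gene. Eif2a (chromosome 3, 58525821 to 58557501) codes for eIF2A, a protein distinct from eIF2 alpha that can bring the initiator tRNA by another route. It had 24.9, 25.1 and 26.0 FPKM in co-culture, against 22.2, 22.3 and 21.3 FPKM alone. It was 1.16-fold higher without overlap (log2 change 0.20, SE 0.039, adjusted p = 0.0031, limma), and its exons share 72 bases with Serp1 on the opposite strand. Eif5b, the GTPase of subunit joining, averaged 22.2 FPKM in co-culture and 23.3 FPKM alone (adjusted p = 0.246), and its exons share 1643 bases with Rev1 on the opposite strand, so its level is uncertain. Eif2d averaged 1.68 FPKM in co-culture and 1.71 FPKM alone (adjusted p = 0.866).

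eIF5A, the factor with the modified amino acid hypusine that helps ribosomes through difficult stretches, fell in its main form. Eif5a (chromosome 11, 69916712 to 69921958) had 162, 160.0 and 157 FPKM in co-culture, against 195, 190.0 and 185 FPKM alone. Its groups did not overlap and it was 1.19-fold lower (log2 change -0.25, SE 0.035, adjusted p = 0.000486, limma). Eif5a2 had 2.57, 2.93 and 3.00 FPKM in co-culture and 2.61, 2.52 and 2.53 FPKM alone (log2 change 0.11, adjusted p = 0.208). The groups of Eif5a2 overlapped and it did not pass. The coding sequences of the 2 genes were 73.2% identical, with a longest identical run of 14 bases.

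**Figure D4:**
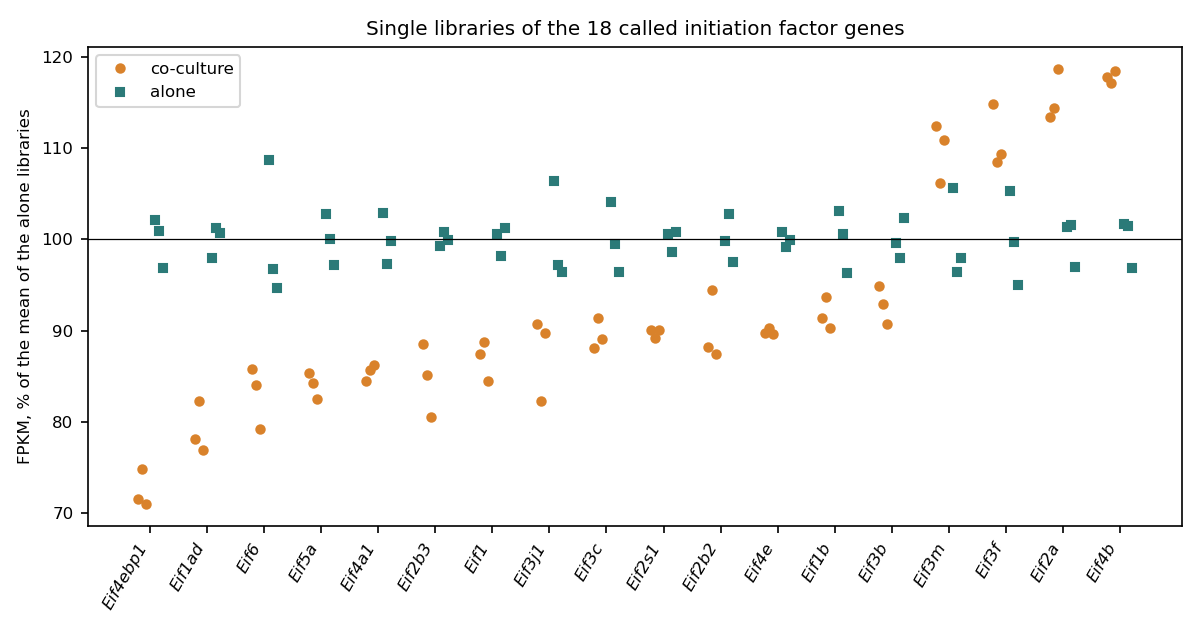
FPKM of the 18 called initiation factor genes in each library as a percent of the mean of the 3 alone libraries (circles, co-culture; squares, alone; genes ordered by change). In each of the 18 genes the co-culture points lie all below or all above the alone points, and Eif4ebp1 lies lowest.

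Summed over the 50 genes, the level was 5301, 5298 and 5274 FPKM in co-culture and 5503, 5299 and 5258 FPKM alone. The groups overlapped, with alone replicate 1 the highest and alone replicate 3 the lowest library (5291 ± 14.7 FPKM in co-culture and 5354 ± 131 FPKM alone, SD, n = 3 each; exact two-sided permutation p = 0.8, adjusted p = 0.8). With 3 libraries against 3 the smallest p of this test is 0.1, so it could not detect a difference in summed RNA at 0.05. Single factors were called lower and higher, while the sums of the groups overlapped.

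The regulators and partners of these factors were described from a list of 59 genes, of which 57 were tested, 12 (21.1%) were lower and 7 (12.3%) were higher, against 17.9% lower and 13.9% higher of all tested genes, so the shares of the list were near those of all genes. The calls of Ppp1r15a, Deptor, Larp1, Pdcd4, Paip2, Ddx3x, Bzw2 and Eef1e1 held under all 18 alternatives. Among the 8 genes of eIF2 kinases, phosphatases and their regulators, 1 fell (12.5%) and 2 rose (25.0%). The differences from the shares of all tested genes were not tested. The gene that fell was Ppp1r15a, which codes for GADD34, the subunit that directs a phosphatase to eIF2 alpha. It averaged 39.5 ± 1.63 FPKM in co-culture, against 53.0 ± 1.8 FPKM alone (SD, n = 3 each; 1.34-fold lower, adjusted p = 5.03e-05, limma). Eif2ak4, which codes for the amino acid sensor GCN2, averaged 15.7 FPKM in co-culture and 13.7 FPKM alone (adjusted p = 0.0251), and Impact, an inhibitor of GCN2 activation, averaged 11.8 FPKM in co-culture and 10.7 FPKM alone (adjusted p = 0.0431). Both were higher in co-culture, but the Impact call was lost without any one of the 6 libraries (0.0516 to 0.154) and held in 8 of 18 alternatives. The Eif2ak4 call held in 11 of 18 and was lost without co-culture replicate 1 or 3 or alone replicate 1 or 2 (0.0517 to 0.0920). The other eIF2 kinases did not pass. Eif2ak1, the heme-regulated kinase, averaged 16.1 FPKM in co-culture and 15.8 FPKM alone (adjusted p = 0.741), and Eif2ak2, the double-stranded RNA kinase PKR, averaged 14.0 FPKM in co-culture and 13.4 FPKM alone (adjusted p = 0.244). Eif2ak3, the endoplasmic reticulum kinase PERK, averaged 4.51 FPKM in co-culture and 4.42 FPKM alone (adjusted p = 0.77).

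In the branch of mTORC1 and the MNK kinases, 3 of 14 genes fell (21.4%) and 2 rose (14.3%). Of all tested genes 17.9% were lower and 13.9% higher, and these differences in share were not tested. Deptor, an inhibitor of mTOR, was 1.252-fold higher at 40.8 ± 1.69 FPKM in co-culture, against 32.6 ± 2.29 FPKM alone (adjusted p = 0.00133). Larp1, whose product binds mRNAs that start with an oligopyrimidine tract, was 1.249-fold lower at 24.3 ± 0.567 FPKM in co-culture, against 30.4 ± 2.02 FPKM alone (adjusted p = 0.000991). The mTORC1 subunit genes Rptor (5.82 FPKM in co-culture, 6.77 FPKM alone, adjusted p = 0.0347) and Mlst8 (4.87 FPKM in co-culture, 5.63 FPKM alone, adjusted p = 0.0275) were lower. The Rptor call held in 10 of 18 alternatives and was lost without any one library other than alone replicate 1 (0.0579 to 0.125). The Mlst8 call held in 12 of 18 and was lost without co-culture replicate 1 or 3 or alone replicate 2 or 3 (0.0606 to 0.0998). Mtor itself averaged 15.6 FPKM in co-culture and 14.8 FPKM alone (adjusted p = 0.461). Mknk2, a kinase of eIF4E, was higher at 25.3 FPKM in co-culture, against 22.4 FPKM alone (adjusted p = 0.014). Beside the fall of Eif4ebp1, an mTORC1 target, the genes of this branch thus moved in both directions, at shares near those of all genes.

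Among the partners of eIF4F and the poly(A) tail, Pdcd4, an inhibitor of eIF4A, was 1.29-fold higher at 11.4 ± 0.0893 FPKM in co-culture, against 8.81 ± 0.268 FPKM alone (adjusted p = 0.000307). Paip2, an inhibitor of poly(A)-binding protein, was lower at 27.2 FPKM in co-culture, against 31.2 FPKM alone (adjusted p = 0.007). Ddx3x, an RNA helicase that assists initiation, was 1.13-fold lower at 274 FPKM in co-culture, against 311 FPKM alone (adjusted p = 0.00485). Paip1, which links poly(A)-binding protein to eIF4A, averaged 21.4 FPKM in co-culture and 22.8 FPKM alone (adjusted p = 0.0864). The inhibitor of the helicase thus rose where Eif4a1 fell and Eif4b rose.

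Of the 5 listed genes of small subunit recycling and start codon mimics 2 fell, against 17.9% of all tested genes. This difference in share was not tested. The 2 were the genes of the eIF5-mimic proteins, which compete with eIF5. Denr, Mcts1 and Abce1 did not pass (adjusted p = 0.388, 0.207 and 0.0832, limma), and Mcts1 had a positive log2 change of 0.10. Bzw2 averaged 27.1 ± 0.197 FPKM in co-culture, against 31.4 ± 0.866 FPKM alone (adjusted p = 0.00183), and Bzw1 averaged 303 ± 8.04 FPKM in co-culture, against 335 ± 10.6 FPKM alone (adjusted p = 0.0163). The Bzw1 call was lost without co-culture replicate 2 (0.0666) or alone replicate 3 (0.0554). Dhps, the first enzyme that makes hypusine on eIF5A, averaged 11.3 FPKM in co-culture, against 12.7 FPKM alone (adjusted p = 0.0239). Unlike that of Eif5a, its call was lost in some alternatives: it held in 11 of 18, and was lost with limma-voom and without co-culture replicate 1 or 2 or alone replicate 2 or 3 (0.0528 to 0.0833).

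Of the 11 listed elongation and termination genes 9 were tested, 1 rose and 1 fell (11.1% each). Both shares were below the 13.9% higher and 17.9% lower of all tested genes, and the differences were not tested. Eef2, the translocase of elongation, was 1.11-fold higher at 1489 ± 16.8 FPKM in co-culture, against 1343 ± 42.4 FPKM alone (adjusted p = 0.0208). That call held in 10 of 18 alternatives and was lost without any one library other than alone replicate 1 (0.0525 to 0.0918). Eef1e1 had the largest change of the list, 1.80-fold lower at 14.7 ± 1.52 FPKM in co-culture, against 26.5 ± 1.62 FPKM alone (log2 change -0.81, adjusted p = 1.68e-05), and its product is known as a scaffold of the multi-tRNA synthetase complex and not as an elongation step. Eef1b2 averaged 563 FPKM in co-culture and 589 FPKM alone (adjusted p = 0.32), and Eef1g averaged 691 FPKM in co-culture and 681 FPKM alone (adjusted p = 0.71). Of 8 mitochondrial translation genes 1 rose (12.5%) and 2 fell (25.0%), and the differences from the shares of all tested genes were not tested. Mtif2, an initiation factor, rose (5.80 FPKM in co-culture, 4.58 FPKM alone, adjusted p = 0.0128). Tsfm, an elongation factor, fell (6.30 FPKM in co-culture, 7.52 FPKM alone, adjusted p = 0.0157), as did the release factor Mtrf1l (1.95 FPKM in co-culture, 2.42 FPKM alone, adjusted p = 0.0259). The Mtif2 call was lost without alone replicate 2 (0.0515), the Tsfm call without co-culture replicate 2 (0.0592) or alone replicate 3 (0.0527), and the Mtrf1l call without co-culture replicate 1 or 2 or alone replicate 2 or 3 (0.0527 to 0.0901). Leaving out 1 library at a time gave 3 to 8 higher and 6 to 14 lower genes of the list, with 4 higher without co-culture replicate 1 or 3, 3 higher without alone replicate 2 and 6 lower without alone replicate 3 (14.4% of all genes lower).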

How the data were processed

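RNA-seq of 3T3-L1 cells, 3 co-culture and 3 alone libraries, was analysed from the deposited table of FPKM per gene. Per the labels' protocols, RNA came from TRIzol extraction and libraries from the VAHTS Universal V6 kit; per the submitters' processing notes, fastp, HISAT2, HTSeq and the mm10 genome were used. The sources used here name no annotation version, strand setting or handling of human reads. FPKM was deposited by the authors as normalized values, so whole reads were recovered from it for depth: all 21436 genes came out whole within 0.0001 reads, scaled by the 1545 bp of mitochondrial cytochrome c oxidase subunit 1. Floors of 3 reads cover counting error only.

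The test was limma 3.58.1 (R 4.3.3), with a mean-variance trend in eBayes, on log2(FPKM + 1), for the 10055 genes averaging 1 FPKM or more, with Benjamini-Hochberg adjustment and a threshold of 0.05; a fold change on this scale understates changes of low genes. The fit was tested on simulated data. Folds in the text are ratios of mean FPKM. Ratios and sums were compared by exact permutation (scipy 1.17.1). Members and lists were chosen with earlier results of these data known. Named with values by library were called members whose log2 change was 0.2 or more in either direction, the highest member of each role and the paralogues; other called or disputed members were added after their values were seen. Of the partner list, called genes were named, and up to 4 others per class. Alternatives were other pseudocounts, filters, scalings (median-ratio, TPM, quantile), no trend, array weights, a replicate block, limma-voom on the recovered reads, a threshold of 0.01 and each library left out. Coordinates are from RefSeq, GRCm38.p6, promoters from RefSeq on the same build, and exon overlaps and coding identity from GENCODE M21.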

Additional observations from a re-analysis of the deposited data

How the results depend on the processing

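Over the 18 alternatives the 18 called initiation factor genes gave 324 values, of which 272 kept direction and call, 52 kept direction and lost the call, and 0 reversed. The changes are small against the spread of 3 libraries a group, recovered reads cover counting error only, and genes that overlap others or share long identical runs are uncertain.

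The 4 initiation factor genes called higher became 2 with no filter, 11 with quantile scaling, 2 with no trend and 2 at a threshold of 0.01; the 14 called lower became 8 at 0.01. Leaving out 1 library gave 2 to 9 higher and 9 to 13 lower. The partner list gave 2 higher and 7 lower with no filter, 2 higher and 6 lower at 0.01, and 3 to 8 higher and 6 to 14 lower without 1 library. Over all tested genes 635 were higher and 1073 lower at 0.01, and 919 to 1427 were higher and 1380 to 1747 lower without 1 library.

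Among the scanning factors 1 was higher with quantile scaling and 1 with array weights, and 0 to 1 without 1 library. In eIF2B 1 was lower with no filter, 0 at 0.01 and 0 to 2 without 1 library. In eIF3 0 were higher with no filter, 8 with quantile scaling, 0 with no trend, 0 at 0.01 and 0 to 6 without 1 library; 1 was lower with no filter, 1 at 0.01 and 1 to 2 without 1 library. In eIF4F and its cofactors 1 was lower at 0.01 and 1 to 3 without 1 library. The fit without a filter tested more genes and the stricter threshold calls fewer by construction; the cause of the other moves was not tested.

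Genes that had not passed changed sign in places, by small amounts. With quantile scaling the log2 change became 0.010 for Eif1ax, 0.0024 for Eif2b4, 0.016 for Eif4e2 and 0.025 for Eif4h, and with array weights 0.0088 for Eif1ax, 0.017 for Eif2b4 and 0.0046 for Eif4e2. TPM scaling gave -0.0010 for Eif4ebp2. Quantile scaling moved the difference in the Eif4a2 to Eif4a1 ratio to 0.0961 and that in the Eif4g2 to Eif4g1 ratio to -0.204.

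Leaving out 1 library at a time, the log2 changes of such genes ranged from -0.045 to 0.013 for Eif1ax, -0.016 to 0.068 for Eif2b1, -0.067 to 0.065 for Eif2b4, -0.059 to 0.028 for Eif2d, -0.0086 to 0.099 for Eif3k, -0.0022 to 0.054 for Eif4a2, -0.043 to 0.027 for Eif4e2, -0.018 to 0.026 for Eif4ebp2, -0.011 to 0.034 for Eif4g1, -0.030 to 0.0066 for Eif5 and -0.00095 to 0.073 for Eif2ak3. The difference in summed FPKM ranged from -110.0 to 12.5, the highest without alone replicate 1. The cause was not tested.

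The groups share replicate numbers. The deviations of libraries of one number correlated at -0.0444, 0.109 and -0.0829 over 10055 genes. With 3 libraries a group these values cannot show whether the numbers pair the libraries. With the replicate block 4 initiation factor genes were higher and 12 lower, 5 and 12 of the partner list, and 1258 and 1640 of all tested genes; not every library correlated best with its own number.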
